A study of Homo sapiens with 8 samples.

Results

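Amino acids enter the cell through carriers of the plasma membrane, and 10 genes for cationic and neutral amino acid carriers were followed through arginine starvation: SLC7A1, SLC7A2, SLC7A5, SLC7A11, SLC3A2, SLC38A1, SLC38A2, SLC1A4, SLC1A5 and SLC6A9. They were taken by name from a table of 23393 gene symbols, and all 10 were among the 15262 genes that passed the filter on low counts. RNA-seq was performed on MDA-MB-231, a human triple-negative breast cancer cell line of mesenchymal type, and on a ρ0 line derived from it that lacks mitochondrial DNA. The study's results describe this DNA as depleted with ethidium bromide, and its methods name the ρ0 line as a gift. There were 4 groups of 2 libraries: parental control cells in full medium, parental cells 48 h after arginine deiminase at 0.3 µg/mL was added to that medium, ρ0 control cells in full medium, and ρ0 cells with the same arginine deiminase treatment. Arginine deiminase converts arginine to citrulline, and the treated groups are called starved here. The enzyme and its dose are those of the sample labels, whereas the study describes the starved cells as kept in arginine-starved medium, and which of these was done could not be settled. All ρ0 libraries came from clone 27. The study's methods keep the ρ0 line in medium with 3 additions, namely uridine, sodium pyruvate and the ethidium bromide. They do not list these additions for the parental medium, nor say whether its base formulation already held any of them. The sources used here do not say whether the sequenced ρ0 cells had these additions. Loss of mitochondrial DNA, other traits of the clone and these additions therefore cannot be told apart. The sources used here do not say that the 2 libraries of a group came from separate cultures, so the p-values measure the spread between these libraries, which may be technical.

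The libraries held 25259503 to 31022155 counts. The 6 genes chosen as typical of MDA-MB-231 (VIM, CD44, AXL, CAV1, ZEB1, MSN) were all measured, and their summed level lay between 2610 and 8540 CPM, that is counts per 1e+06 counts of the library after TMM scaling. The 6 luminal breast genes summed to 12.4 to 15.5 CPM in parental and 31.1 to 55.3 CPM in ρ0 libraries, with ESR1 and PGR below the filter. The other luminal genes went in both directions between the lines. In full medium FOXA1 was lower in ρ0 than in parental cells (log2 -7.61), while GATA3 (1.87), EPCAM (5.61) and CDH1 (8.68) were higher. The 4 leukocyte genes summed to at most 3.43 CPM, with 2 of them at 0 in every library. The part of these marker differences between the lines in the results below was not tested. The table listed 0 of the 13 protein genes of the mitochondrial genome, so it offers no check of the missing mitochondrial genome. The ρ0 control libraries differed most from each other, at a biological coefficient of variation of 25.1%, where the other groups had 1.84% to 5.18%, and the log2 values that rest on them are given below without either one.

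Arginine and the other cationic amino acids are taken up mainly by the SLC7A1 and SLC7A2 carriers. SLC3A2 is a heavy chain that brings light chains such as SLC7A5 (large neutral amino acids) and SLC7A11 (cystine in exchange for glutamate) to the membrane. SLC38A1, SLC38A2, SLC1A4, SLC1A5 and SLC6A9 carry small neutral amino acids, glutamine and glycine with sodium. When amino acids run short, the kinase GCN2 phosphorylates eIF2α and translation of the transcription factor ATF4 increases. Many carrier genes are known targets of ATF4, which binds C/EBP-ATF response elements.

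Starvation raised most of the 10 mRNAs in both lines, and none fell. A gene was called a differentially expressed gene (DEG) at a Benjamini-Hochberg adjusted p under 0.05 in edgeR's quasi-likelihood test together with an absolute log2 fold change over 1. In parental cells 8 of the 10 carriers were up-regulated DEGs and 0 down-regulated, while 12.7% of all tested genes were up-regulated and 22.1% down-regulated. At any fold change 9 carriers were significantly higher and 0 lower, against 30.4% and 35.5% of all genes. In ρ0 cells 9 were up-regulated DEGs (8 without ρ0 control replicate 1, where SLC7A1 fell below the fold threshold) and 0 down-regulated, against 4.22% and 8.19% of all genes, and the same 9 were higher at any fold change, against 19.2% higher and 22.1% lower. The median log2 fold change of the 10 carriers was 1.66 in parental and 1.61 in ρ0 cells, beside -0.07 and -0.02 over all tested genes. All 10 values were above 0 in both lines, and DESeq2 and limma-voom also called 8 and 9 carriers up-regulated and 0 down-regulated. SLC7A2 did not pass the test in parental cells, nor SLC7A5 in ρ0 cells. These are bulk libraries with levels relative to the TMM-scaled library, in which fewer cells that express a gene and less RNA per cell cannot be told apart.

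**Figure D1:**
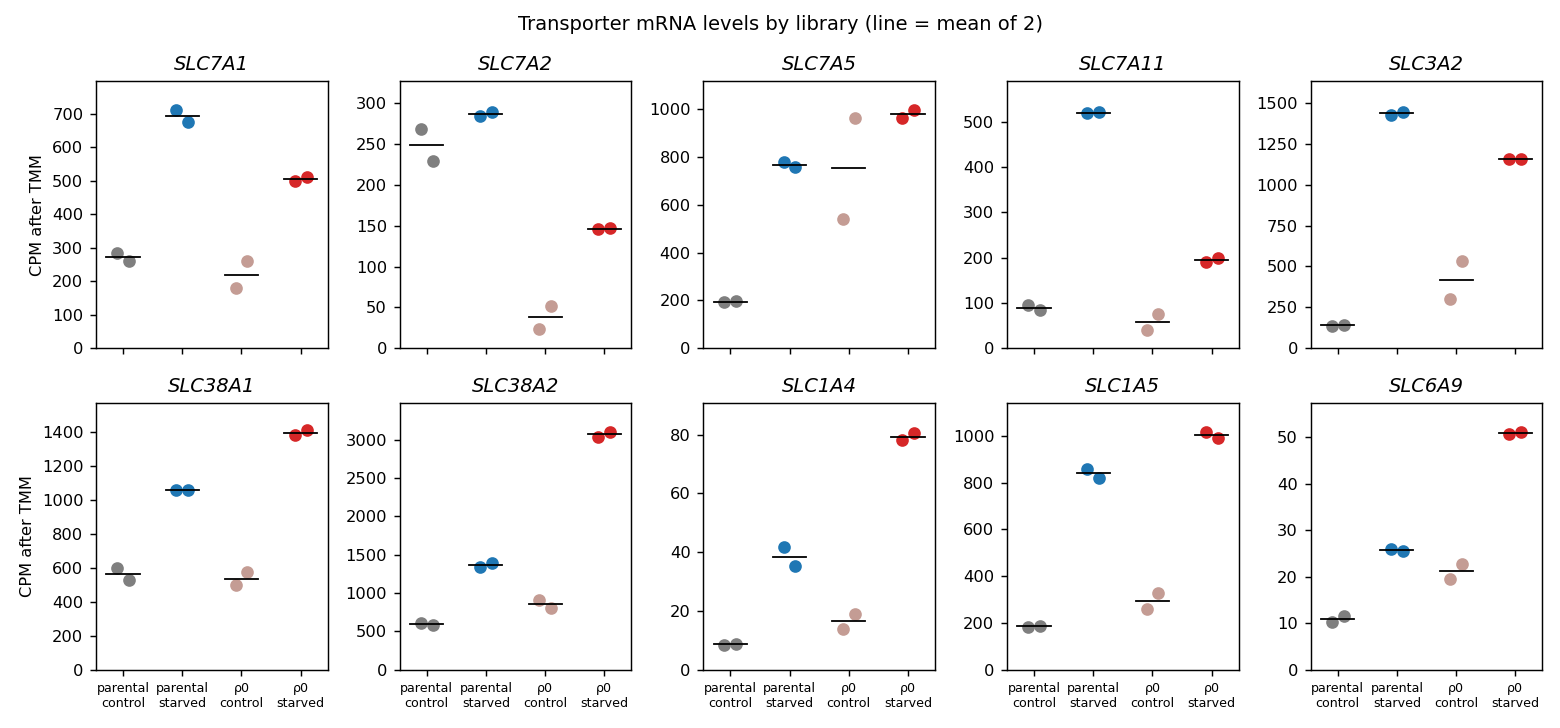
Level of each carrier mRNA in every library, in CPM on a linear axis that starts at 0, with a point per library and a line at the mean of 2. In both lines starved libraries lie above the controls of the same line, except for SLC7A5 in ρ0 cells, where one control library at 964 CPM reaches the starved libraries at 962 and 994 CPM.

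Promoter sequence, from 250 bases before to 50 after the start of each gene, was given by RefSeq (GRCh38.p14) for 8 of the 10 carriers, and SLC7A2 and SLC7A11 were not in that table. The core of the C/EBP-ATF response element, searched as TGATGNAA on both strands, was found in 3 of the 8 windows, and 3.62% of all 35116 windows of this length held it. The stricter form TGATGCAA was in none of the 8 and in 0.866% of all windows. These matches are descriptions of the letters only, and they are shown because the element is the one ATF4 is known to bind. The 30 bases around each match are printed in the direction of the gene, with the match in capitals. In SLC7A1 (minus strand, chr13:29595663-29595692) the match started 8 bases into the transcript. In SLC38A1 (minus strand, chr12:46266502-46266531) it started 4 bases before the transcript start. In SLC3A2 (plus strand, chr11:62881719-62881748) it lay on the opposite strand, from base 38 of the transcript.
SLC7A1: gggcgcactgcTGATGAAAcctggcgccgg
SLC38A1: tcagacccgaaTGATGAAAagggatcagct
SLC3A2: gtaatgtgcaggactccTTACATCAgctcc

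The antioxidant response element core, which NRF2 is known to bind, was searched as TGACNNNGC on both strands. It occurred in 3 of the 8 windows, namely those of SLC7A1, SLC7A5 and SLC3A2, and in 13.3% of all windows. The E-box CACGTG, which MYC is known to bind and which reads alike on both strands, was in the SLC7A5 window and in 7.26% of all windows. SLC3A2 had the largest fold change of the 10 carriers in parental cells, and the 250 bases before its start (plus strand, chr11:62881449-62881698) are printed for that reason, with the antioxidant response element match in capitals.
SLC3A2: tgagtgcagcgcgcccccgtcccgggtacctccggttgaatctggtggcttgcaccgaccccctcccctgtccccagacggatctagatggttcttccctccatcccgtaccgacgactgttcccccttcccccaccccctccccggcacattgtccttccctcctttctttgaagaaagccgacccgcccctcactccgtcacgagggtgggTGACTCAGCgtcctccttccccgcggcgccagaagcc

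Among the carriers followed, the cationic pair SLC7A1 and SLC7A2 gave different calls in parental cells. SLC7A1 (CAT1), the main arginine carrier of many dividing cells, was at 285 and 259 CPM in the parental controls and at 711 and 674 CPM in the starved libraries. In ρ0 cells it was at 179 and 259 CPM in control and at 498 and 512 CPM in starved libraries. Starved and control libraries did not overlap in either line. SLC7A1 rose by 1.35 on the log2 scale (SE 0.16, adjusted p = 2.40e-04) in parental and by 1.20 (SE 0.16, adjusted p = 0.00125) in ρ0 cells. The ρ0 value was 0.96 without ρ0 control replicate 1, below the fold threshold for a DEG, and 1.5 without replicate 2.

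SLC7A2 (CAT2) was the other cationic carrier followed here. It stood at 269 and 229.7 CPM in the parental controls and at 285 and 289.9 CPM after starvation. The starved libraries lay above both controls, but the controls differed by more than the gap between the groups. Its parental change of 0.21 (SE 0.29, 95% confidence interval -0.47 to 0.88) was not significant (adjusted p = 0.556). It passed the test in 4 alternatives (adjusted p = 7.27e-04 to 0.00891), at 0.21 when limma-voom gave each group its own weight, at 0.25 on the parental libraries alone, and at 0.20 and 0.24 without ρ0 control replicate 1 or 2. In ρ0 cells SLC7A2 was low in both controls, at 23.9 and 51.6 CPM, and reached 146.6 and 146.8 CPM in the starved libraries. This was a rise of 1.96 (SE 0.30, adjusted p = 0.00228), which was 1.51 without ρ0 control replicate 1 and 2.63 without replicate 2. Per kb of the longest transcript, SLC7A2 made up 47.6% and 46.0% of the sum of SLC7A1 and SLC7A2 in the parental controls and 27.8% and 29.3% in the starved parental libraries. In ρ0 cells its share was 11.4% and 16.1% in the controls and 22.0% and 21.6% after starvation. The share was therefore lower in both starved than in both control libraries of parental cells, and higher in ρ0 cells. With the median transcript length the mean shares were 32.4% in parental control, 17.8% in parental starved, 8.25% in ρ0 control and 13.2% in ρ0 starved cells, so the order of the groups held and the size of the share did not.

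SLC3A2, the heavy chain CD98hc, stood at 135 and 144 CPM in the parental controls and at 1426 and 1448 CPM in the starved libraries. It rose 10.3-fold, by 3.37 on the log2 scale (SE 0.25, adjusted p = 2.81e-05). In ρ0 cells it was at 304 and 535 CPM in control and at 1158 CPM in both starved libraries. The ρ0 rise was 2.76-fold, or 1.46 on the log2 scale (SE 0.23, adjusted p = 0.00232), from a control level above the parental one. The ρ0 log2 fold change was 1.11 without ρ0 control replicate 1 and 1.94 without replicate 2.

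SLC7A5 (LAT1), the light chain that takes up leucine and other large neutral amino acids, was measured at 192 and 197 CPM in the parental controls and 779 and 758 CPM after starvation. It rose by 1.98 (SE 0.24, adjusted p = 2.31e-04). The ρ0 controls were far apart for this gene, at 541 and 964 CPM, and the starved ρ0 libraries at 962 and 994 CPM overlapped with them. The ρ0 log2 fold change of 0.38 (SE 0.23, 95% confidence interval -0.15 to 0.91) was not significant (adjusted p = 0.22). It was 0.02 without ρ0 control replicate 1 and 0.87 without replicate 2, and with limma-voom and group weights it was 0.43 (adjusted p = 0.0467).

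SLC7A11 (xCT), the light chain that imports cystine for glutathione synthesis, was at 96.0 and 83.4 CPM in parental control and 519 and 522 CPM in parental starved libraries. In ρ0 cells it was at 41.1 and 74.6 CPM in control and 190.0 and 199 CPM in starved libraries. The groups did not overlap in either line, and the starved parental libraries were the highest of the 8. SLC7A11 rose by 2.54 (SE 0.25, adjusted p = 9.12e-05) in parental and by 1.75 (SE 0.24, adjusted p = 0.00144) in ρ0 cells. The ρ0 value was 1.38 without ρ0 control replicate 1 and 2.25 without replicate 2. An antisense gene, SLC7A11-AS1, overlaps it and had 8 to 59 counts. Whether counting used strand is not stated, so reads of the 2 genes cannot be told apart.

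The balance of heavy and light chain mRNA differed between control and starved libraries. Per kb of the longest transcript, SLC3A2 was at 60.6 and 64.7 CPM per kb in the parental controls, and the 6 light chains listed (SLC7A5, SLC7A6, SLC7A7, SLC7A8, SLC7A10 and SLC7A11) summed to 69.1 and 68.3. After starvation SLC3A2 was at 642 and 652 and the light chains at 258 and 253 CPM per kb. The ratio of heavy chain to summed light chains was thus 0.878 and 0.947 in parental control and 2.49 and 2.57 in parental starved libraries. The ρ0 controls, apart as they were in level, had like ratios of 0.992 and 1.02, and the starved ρ0 libraries 2.07 and 2.01. With the median in place of the longest transcript length the mean ratio was 0.432 in parental control, 1.77 in parental starved, 0.897 in ρ0 control and 1.81 in ρ0 starved cells, so the rise in both lines held under either length and the control level did not. No test was run on these ratios.

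**Figure D2:**
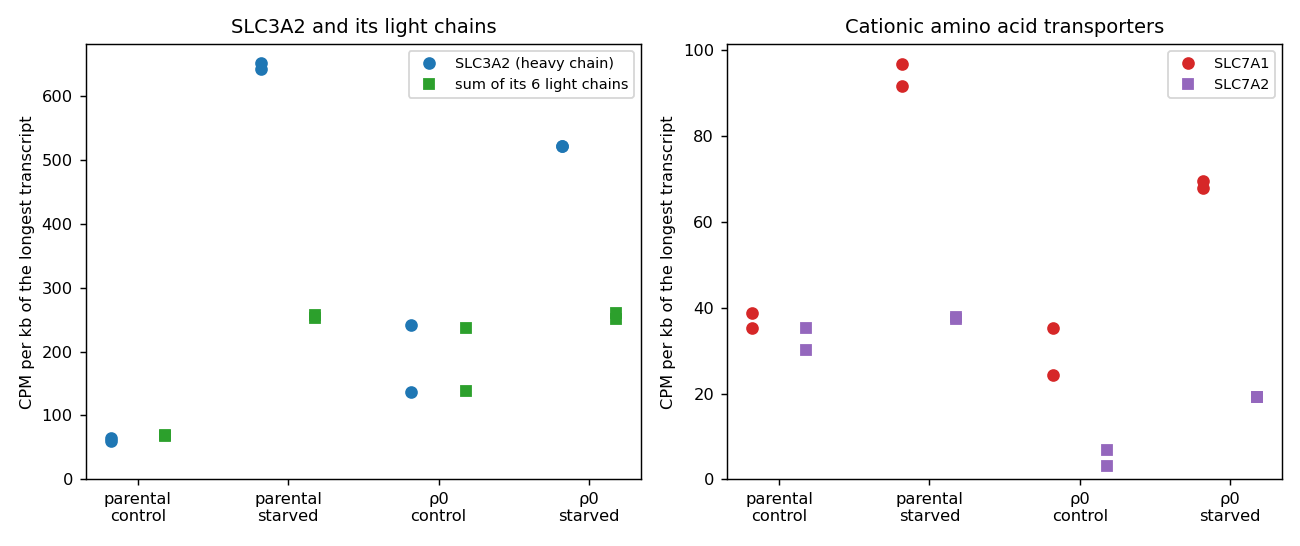
Left, SLC3A2 and the sum of its 6 light chains, and right, SLC7A1 and SLC7A2, in CPM per kb of the longest transcript on linear axes from 0, with a point per library. SLC3A2 stands at 642 and 652 in starved parental libraries beside 258 and 253 for its light chains, and SLC7A2 is lowest in the ρ0 controls.

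The sodium-coupled carriers SLC38A1 and SLC38A2 rose in both lines, with the larger estimate in ρ0 cells. For SLC38A1 the difference between the lines no longer passed the test in 6 of the alternative or left-out-library fits. SLC38A1 (SNAT1), a glutamine carrier, was at 597 and 525 CPM in parental control and at 1058 and 1056 CPM in parental starved libraries. Its parental rise of 0.91 (SE 0.10, adjusted p = 1.77e-04) passed the test but not the fold threshold for a DEG. In ρ0 cells SLC38A1 was at 496 and 575 CPM in control and at 1379.7 and 1408 CPM in starved libraries, a rise of 1.38 (SE 0.10, adjusted p = 1.75e-04). It was 1.28 without ρ0 control replicate 1 and 1.5 without replicate 2. Control libraries of the lines overlapped for this gene, whereas the starved ρ0 libraries were higher than the starved parental ones.

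SLC38A2 (SNAT2), which is known to be induced by amino acid shortage, was at 614 and 587 CPM in parental control and 1346 and 1395 CPM in parental starved libraries. The ρ0 libraries were at 913 and 805 CPM in control and 3038 and 3099 CPM after starvation, so that the starved ρ0 libraries were the highest of the 8. SLC38A2 rose by 1.19 (SE 0.09, adjusted p = 3.23e-05) in parental and by 1.84 (SE 0.09, adjusted p = 4.65e-05) in ρ0 cells, where it was 1.93 without ρ0 control replicate 1 and 1.76 without replicate 2. SLC38A2 was also the one carrier that was lower in ρ0 control replicate 2 than in replicate 1.

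SLC1A5 (ASCT2), a glutamine carrier, and SLC1A4 (ASCT1), a carrier of alanine, serine and cysteine, had among the largest rises in both lines. SLC1A5 went from 182 and 189 CPM to 859 and 819 CPM in parental cells, and from 260.0 and 328 CPM to 1016 and 989 CPM in ρ0 cells. This was a rise of 2.18 (SE 0.12, adjusted p = 1.14e-05) in parental and 1.77 (SE 0.12, adjusted p = 1.31e-04) in ρ0 cells, the latter 1.61 or 1.96 without ρ0 control replicate 1 or 2. SLC1A4 was at 8.42 and 8.89 CPM in parental control and 41.6 and 35.4 CPM in parental starved libraries. In ρ0 cells it was at 13.8 and 19.1 CPM in control and 78.2 and 80.6 CPM after starvation. SLC1A4 rose by 2.15 (SE 0.17, adjusted p = 3.60e-05) in parental and 2.27 (SE 0.16, adjusted p = 1.60e-04) in ρ0 cells. Its ρ0 value was 2.05 without ρ0 control replicate 1 and 2.54 without replicate 2, and starved libraries did not overlap with controls for either gene.

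SLC6A9 (GLYT1), which carries glycine, was at 10.3 and 11.6 CPM in the parental controls and 26.0 and 25.6 CPM in the starved libraries. The ρ0 values were 19.5 and 22.8 CPM in control and 50.7 and 51.2 CPM after starvation. SLC6A9 rose by 1.24 (SE 0.12, adjusted p = 7.33e-05) in parental and 1.27 (SE 0.11, adjusted p = 2.54e-04) in ρ0 cells, from a ρ0 control level that was above the parental one. The ρ0 value was 1.16 without ρ0 control replicate 1 and 1.39 without replicate 2. The gene CCDC24 overlaps SLC6A9 and had 33 to 194 counts, so part of its reads may be shared. Like SLC1A4, SLC6A9 was among the carriers with the fewest counts, with 333 in its lowest library, and SLC1A4 had 256.

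**Figure D3:**
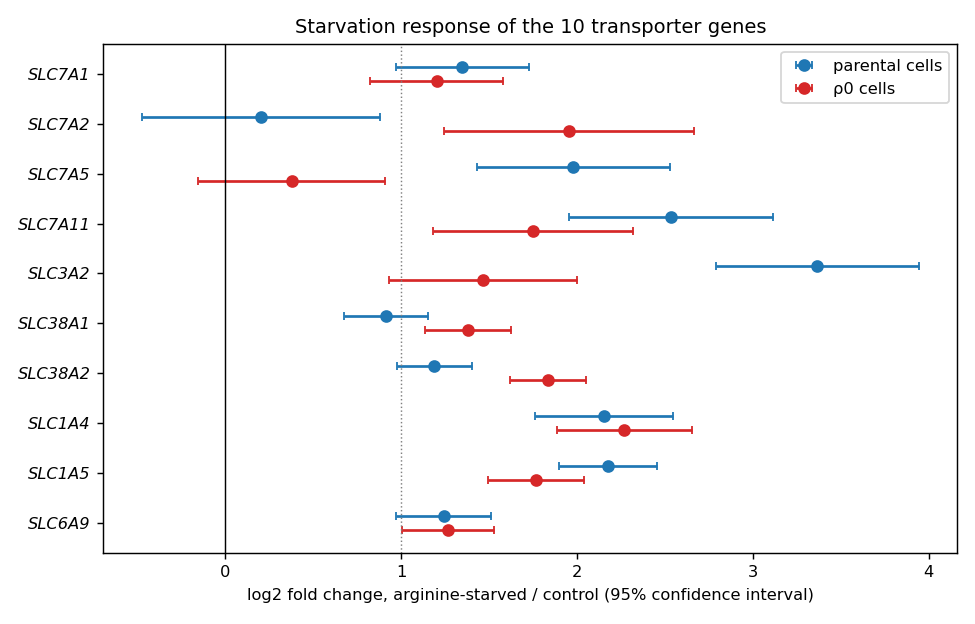
Log2 fold change of starved over control cells with 95% confidence intervals for the 10 carriers in parental and ρ0 cells, from edgeR's quasi-likelihood fit on 8 libraries. The dotted line marks a log2 fold change of 1, and the intervals of SLC7A2 in parental cells and SLC7A5 in ρ0 cells reach across 0.

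Whether the response differed between the lines was tested as an interaction, the log2 fold change in ρ0 minus that in parental cells, called at an adjusted p under 0.05. The responses differed for 5 of the 10 carriers and for 40.4% of all tested genes, so the count is near the share over all genes. In ρ0 cells 3 carriers had the higher response (SLC7A2, SLC38A1 and SLC38A2) and 2 the lower one (SLC3A2 and SLC7A5), while 21.6% of all tested genes were higher and 18.8% lower. The response of SLC3A2 was lower by 1.90 on the log2 scale in ρ0 cells (SE 0.32, adjusted p = 0.00387), and that of SLC7A5 by 1.60 (SE 0.32, adjusted p = 0.00761). SLC7A2 had a response higher by 1.75 (SE 0.42, adjusted p = 0.0141), SLC38A2 by 0.65 (SE 0.13, adjusted p = 0.00678) and SLC38A1 by 0.47 (SE 0.14, adjusted p = 0.0372). For 5 carriers the difference was not significant, which does not show that they responded alike. SLC7A11 had a difference of -0.79 (95% confidence interval -1.57 to -0.01, adjusted p = 0.0982) and SLC1A5 one of -0.41 (-0.79 to -0.03, adjusted p = 0.0795). The intervals were -0.67 to 0.38 for SLC7A1, -0.42 to 0.65 for SLC1A4 and -0.35 to 0.40 for SLC6A9. The difference was compared with 15262 genes, and its median over the 10 carriers was -0.06, beside 0.02 over all genes.

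The ρ0 controls set much of the uncertainty in these differences. In ρ0 control replicate 2, 9 of the 10 carriers were higher than in replicate 1, with replicate 2 to replicate 1 ratios of CPM from 0.882 for SLC38A2 to 2.16 for SLC7A2. The ratio was 1.82 for SLC7A11, 1.78 for SLC7A5 and 1.76 for SLC3A2. A ratio over 1.25 was found for 7 carriers and for 24.8% of the tested genes with counts in these libraries. Of these genes, 26.7% had a ratio below the inverse of 1.25. Above 1.75, a cut just below the values named, were 4 carriers and 6.93% of the genes. In the other 3 groups the ratios of the 10 carriers lay between 0.852 and 1.13. ATF4 itself was at 144 CPM in ρ0 control replicate 1 and 201 CPM in replicate 2. The part of this difference between the ρ0 controls in the interaction was not tested beyond leaving out either library.

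Without ρ0 control replicate 1 the difference between the responses was -2.26 for SLC3A2 and -1.96 for SLC7A5, and without replicate 2 it was -1.46 and -1.15. For SLC7A2 it was 1.30 and 2.39, for SLC38A1 0.36 and 0.55, and for SLC38A2 0.74 and 0.53. All 5 kept their direction without either library. The difference of SLC7A11 was -1.15 without replicate 1 and -0.32 without replicate 2. In these fits the remaining ρ0 control is assumed to vary like the other groups, which makes their p-values small for that reason. The call for SLC7A2 was lost without parental control replicate 1 (1.63, adjusted p = 0.0607), parental starved replicate 1 (1.74, adjusted p = 0.0572), parental starved replicate 2 (1.76, adjusted p = 0.0564) or ρ0 starved replicate 1 (1.73, adjusted p = 0.0507). That for SLC38A1 was lost without parental control replicate 1 or any one of the 4 starved libraries, at 0.37 to 0.47 (adjusted p = 0.117 to 0.136).

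**Figure D4:**
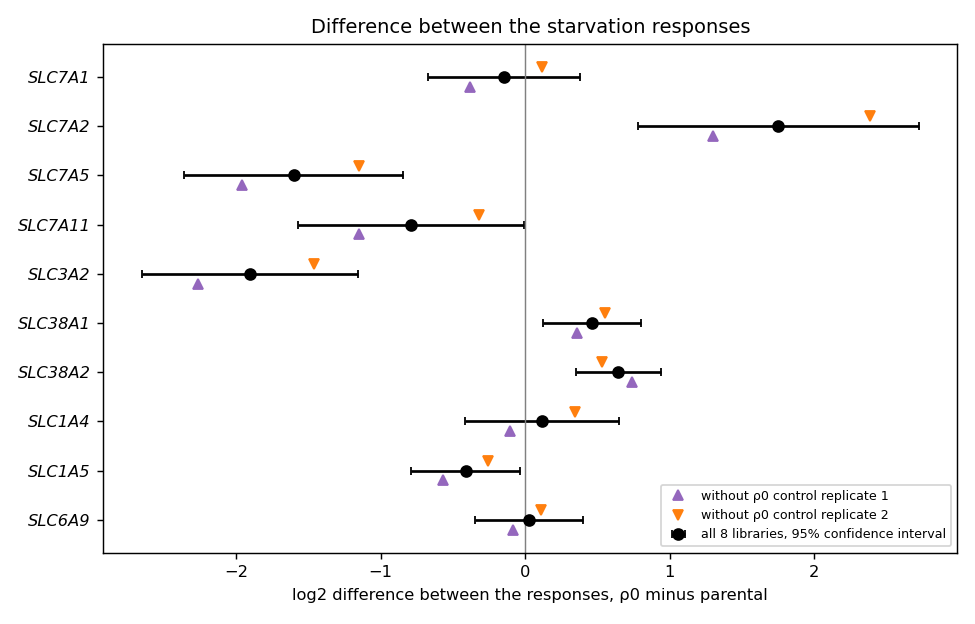
Difference between the starvation responses, ρ0 minus parental, on the log2 scale for the 10 carriers, with 95% confidence intervals from all 8 libraries and the values without ρ0 control replicate 1 (upward triangles) or replicate 2 (downward triangles). SLC3A2 and SLC7A5 stay below 0, and SLC7A2, SLC38A1 and SLC38A2 above 0, in all 3 fits, while SLC7A1, SLC1A4 and SLC6A9 change sign.

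In full medium the lines differed at any fold change for 7 of the 10 carriers, near the 62.3% of all tested genes that did so. In ρ0 against parental controls 2 carriers were up-regulated DEGs and 1 was a down-regulated DEG, against 13.6% and 17.3% of all genes, and at any fold change 6 were higher and 1 lower, against 30.5% and 31.8%. SLC7A5 was higher in ρ0 cells by 1.95 (SE 0.24, adjusted p = 2.72e-04) and SLC3A2 by 1.59 (SE 0.23, adjusted p = 6.83e-04). Without ρ0 control replicate 1 these were 2.31 and 1.94, and without replicate 2 they were 1.53 and 1.18. SLC7A2 was the only carrier significantly lower, by 2.72 (SE 0.31, adjusted p = 2.07e-04). It was lower by 2.27 without ρ0 control replicate 1 and by 3.33 without replicate 2. Smaller differences above 0 that passed the test were 0.96 for SLC6A9, 0.93 for SLC1A4, 0.67 for SLC1A5 and 0.52 for SLC38A2 (adjusted p = 2.68e-04 to 0.00204). Without ρ0 control replicate 1 they were 1.06, 1.15, 0.82 and 0.42, and without replicate 2 they were 0.90, 0.72, 0.54 and 0.66, so that SLC6A9 and SLC1A4 passed the fold threshold in the first case. SLC7A11 was at -0.63 (adjusted p = 0.0503), at -0.27 without ρ0 control replicate 1 and at -1.07 without replicate 2, and with all libraries it passed the threshold with DESeq2 (adjusted p = 0.0195) and limma-voom (adjusted p = 0.0374).

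After starvation the lines were compared again. Between the starved groups, 2 carriers were up-regulated DEGs in ρ0 cells and 1 down-regulated, against 18.7% and 16.8% of all genes, and at any fold change 4 were higher and 3 lower, against 32.9% and 33.5%. SLC38A2, SLC1A4, SLC6A9 and SLC7A2 were called at any fold change in the same direction in full medium. SLC38A2 was higher in starved ρ0 cells by 1.16 (SE 0.09, adjusted p = 2.70e-05) and SLC1A4 by 1.04 (SE 0.16, adjusted p = 7.31e-04), or 0.93 without parental starved replicate 2, below the fold threshold. SLC6A9, at 0.98 (adjusted p = 1.71e-04), fell just short of the fold threshold. SLC7A11 was lower by 1.42 (SE 0.24, adjusted p = 0.00128). SLC3A2, higher in ρ0 than parental cells in full medium, had a starved difference of -0.31 (95% confidence interval -0.84 to 0.21, adjusted p = 0.25), and SLC7A5 one of 0.35 (-0.18 to 0.88, adjusted p = 0.209). Fitted on the 4 starved libraries alone, which spread less than the ρ0 controls, these were -0.28 for SLC3A2 (adjusted p = 4.18e-11) and 0.38 for SLC7A5 (adjusted p = 1.04e-12). SLC7A1 was lower by 0.46 (adjusted p = 0.0357), a call that was lost with upper quartile scaling (0.39 lower, adjusted p = 0.0664) and without any one of the parental or starved ρ0 libraries (0.41 to 0.49 lower, adjusted p = 0.0614 to 0.158). SLC7A2 was lower by 0.97 (adjusted p = 0.0201), a call lost without any one of the 4 starved libraries (adjusted p = 0.0695 to 0.0934). The 4 starvation and line comparisons share libraries, so they are not independent of each other.

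The order of the carriers, compared per kb of the longest transcript, also changed with starvation. In the parental controls SLC38A2 was highest at 123 CPM per kb, followed by SLC38A1 at 69.5, SLC1A5 at 64.3 and SLC3A2 at 62.7, and neighbours among the last 3 overlapped. In starved parental cells SLC3A2 was highest at 647, ahead of SLC1A5 at 291 and SLC38A2 at 280.3, which overlapped. In ρ0 controls SLC3A2 (189), SLC38A2 (176) and SLC7A5 (166) came first and overlapped from neighbour to neighbour. In starved ρ0 cells SLC38A2 led at 628 CPM per kb, then SLC3A2 at 521 and SLC1A5 at 348, without overlap. The lowest level per length was that of SLC1A4 or SLC6A9 in each group, from 1.90 CPM per kb for SLC1A4 in parental control to 16.3 for SLC6A9 in ρ0 starved cells. With the median transcript length SLC38A1 came first in parental and SLC38A2 in ρ0 controls, SLC7A2 came last in both ρ0 groups, and the leading gene of both starved groups was the same.

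For 3 carriers the tested genes of at least 10 CPM with the most similar pattern over the 8 libraries were looked up, by Pearson's r of log2 CPM. MKX (0.997), MLH3 and RSL24D1 (both 0.995) were most like SLC7A1, and TET3, USP31 (both 0.998) and VPS37C (0.996) most like SLC7A11. ZNF639, ZC3H15 (both 0.999) and SDE2 (0.998) were most like SLC3A2. Among the carriers, SLC7A1 and SLC7A11 were most like each other (0.983), and SLC1A5 was most like SLC3A2 (0.966). These values describe 8 libraries in 4 groups that share depth and treatment, and among 9950 genes the highest values are high by selection.

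Other plasma membrane amino acid carriers did not move together. Of 31 listed, 16 passed the filter, and in parental cells 4 were up-regulated and 4 down-regulated DEGs, or 50% in all against 34.9% of all tested genes, with a median log2 fold change of 0.57. In ρ0 cells 2 were up-regulated and 3 down-regulated, or 31.2% against 12.4% of all tested genes, with a median of 0.03. SLC43A1 (LAT3), a sodium-independent carrier of large neutral amino acids, rose by 1.35 in parental and 1.18 in ρ0 cells (adjusted p = 0.00129 and 0.0062), the latter 0.82 or 1.68 without ρ0 control replicate 1 or 2. SLC43A2 (LAT4), of the same family, rose by 1.49 and 0.93 (adjusted p = 5.62e-04 and 0.00664), and SLC7A6, a further light chain of SLC3A2, by 1.0 and 0.49 (adjusted p = 2.06e-04 and 0.0126). The down-regulated DEGs of parental cells were SLC38A4 and 3 carriers of acidic amino acids, SLC1A1, SLC1A3 and SLC1A7. SLC1A3, the glutamate and aspartate carrier, fell by 1.09 in parental and 0.85 in ρ0 cells (adjusted p = 8.26e-04 and 0.0088). SLC1A1, also a glutamate carrier, was at 12.5 and 11.6 CPM in parental control and 1.19 and 1.24 CPM in parental starved libraries, and fell by 3.30 (adjusted p = 4.05e-04). Its ρ0 change of -0.48 was not significant (adjusted p = 0.383), and was 0.40 without ρ0 control replicate 1 and -1.01 without replicate 2. SLC38A4, a relative of SLC38A1 and SLC38A2, fell by 3.50 in parental and 1.25 in ρ0 cells (adjusted p = 1.58e-04 and 0.0173), opposite to its relatives. The ρ0 value of SLC38A4 was -0.57 without ρ0 control replicate 1 and -1.70 without replicate 2. SLC1A7, named after its values were seen, had 0 counts in both starved parental libraries and was at least 11.9-fold lower there than in the controls, against a floor of 3 counts per library.

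Among these other carriers the response was higher in ρ0 than in parental cells for 3 and lower for 2, which at 31.2% is below the 40.4% of all tested genes. SLC1A1 had a difference of 2.82 (adjusted p = 0.00928) and SLC38A4 of 2.25 (adjusted p = 0.0107), that is, they had the smaller drop in ρ0 cells, and SLC7A6 had a difference of -0.51 (adjusted p = 0.0416). Without ρ0 control replicate 1 these differences were 3.70, 2.93 and -0.68, and without replicate 2 they were 2.26, 1.76 and -0.34. Carriers of the lysosome included 0 DEGs in either line, against 34.9% of all tested genes in parental and 12.4% in ρ0 cells. Of 8 lysosomal carriers listed, 7 were tested, and their log2 fold changes lay between -0.25 and 0.94 in both lines, below the fold threshold. At any fold change 5 were significantly higher in parental and 2 in ρ0 cells, against 30.4% and 19.2% of all tested genes. In both lines 0 were significantly lower, against 35.5% of all tested genes in parental and 22.1% in ρ0 cells. The response was lower in ρ0 cells for SLC36A1, a proton-coupled carrier (-0.75, adjusted p = 0.00616), PQLC2, a carrier of cationic amino acids (-0.46, adjusted p = 0.0401), and SLC29A3 (-1.19, adjusted p = 0.00162), which is known to carry nucleosides and not amino acids. These 3 were 42.9% of the 7, where 18.8% of all tested genes had the lower response and 40.4% differed in either direction.

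**Figure D5:**
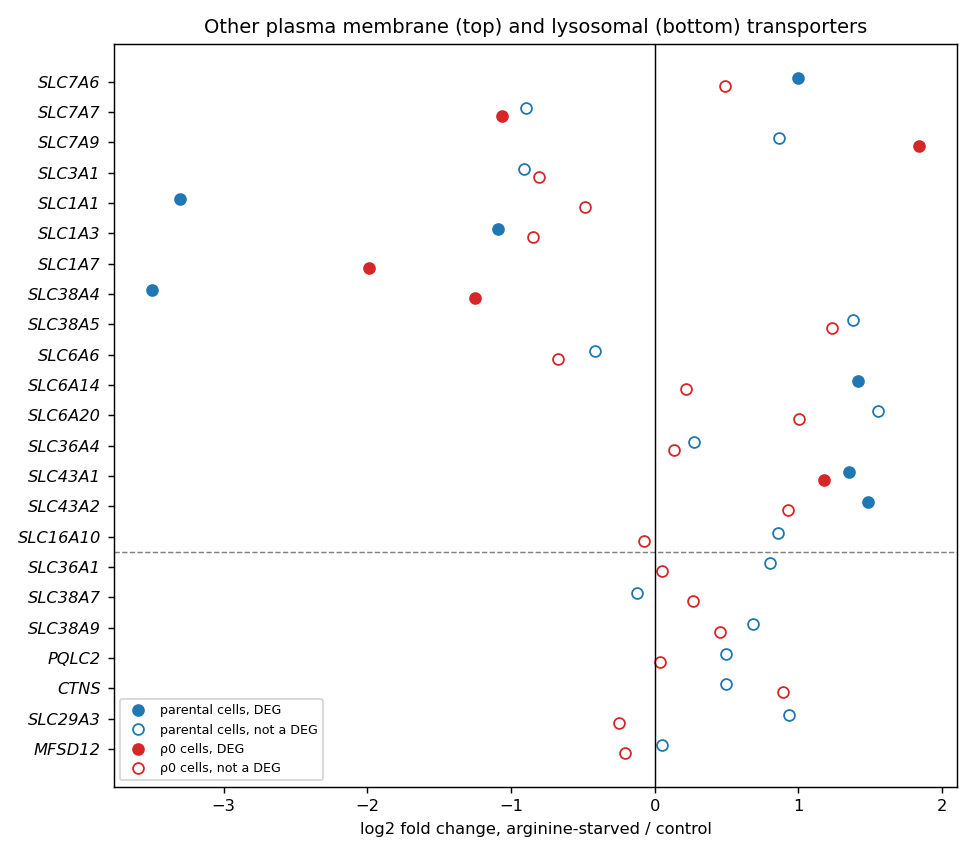
Log2 fold change of starved over control cells for the 16 other plasma membrane carriers (above the dashed line) and 7 lysosomal carriers (below it) that were tested, with filled points for DEGs and open points for the rest. The lysosomal carriers lie between -0.25 and 0.94, and the parental value of SLC1A7 is not drawn because it had 0 counts in both starved parental libraries.

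Factors known to act on carrier genes were compared as mRNA. Of 10 such genes, 5 were up-regulated DEGs in each line, where 12.7% of all tested genes were up-regulated in parental and 4.22% in ρ0 cells. ATF4 rose by 1.75 in parental and 0.89 in ρ0 cells, a response lower by 0.85 in ρ0 cells (adjusted p = 0.0136). ATF5 rose by 2.09 in parental cells and was at 0.09 in ρ0 cells (adjusted p = 0.754), with a difference of -2.01 (adjusted p = 0.00184). ATF3, a stress factor induced downstream of ATF4, rose by 4.22 and 2.02, with a difference of -2.20 (adjusted p = 0.00111). CEBPB and TRIB3 had the opposite pattern. CEBPB, a partner of ATF4 on response elements, rose by 1.25 in ρ0 cells and was at 0.10 in parental cells (adjusted p = 0.596), with a difference of 1.15 (adjusted p = 0.0069). TRIB3, a pseudokinase induced by ATF4 and DDIT3, rose by 1.81 in ρ0 cells and was at -0.09 in parental cells (adjusted p = 0.8), with a difference of 1.90 (adjusted p = 0.0102). MYC rose by 2.41 and 2.0 and DDIT3 (CHOP) by 1.27 and 1.86, without a significant difference (adjusted p = 0.153 and 0.12). NFE2L2, which encodes NRF2, rose by 0.48 and 0.47, and BACH1, a repressor that competes with NRF2, fell by 0.42 in parental and rose by 0.96 in ρ0 cells, a difference of 1.38 (adjusted p = 0.00128). Without ρ0 control replicate 1 or 2, the differences were -1.07 or -0.62 for ATF4, -2.30 or -1.67 for ATF5, 1.16 or 1.10 for CEBPB, and 1.46 or 2.53 for TRIB3. The differences in mRNA of the carriers thus stood beside factors that differed in both directions, and no link between them was tested.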

How the data were processed

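RNA-seq was measured in 8 libraries of MDA-MB-231 cells, 2 for each of 4 groups named by the labels. The authors deposited 1 table of unnormalized read counts with a row per gene symbol; the submitters' processing notes name Bowtie, Partek and hg19, and whether counting used strand is not given in the sources used here. All columns were matched to samples, with 0 left over. Counts were tested with edgeR 4.0.16 (limma 3.58.1, R 4.3.3): filterByExpr left 15262 of 23393 genes, TMM scaled the libraries, and glmQLFit with 1 mean per group over all 8 libraries (4 residual degrees of freedom, 3.40 prior) was tested with glmQLFTest, with Benjamini-Hochberg adjustment over all tested genes. CPM are counts per 1e+06 counts of the TMM-scaled library. DESeq2 1.42.0, limma-voom and other scalings, filters and left-out libraries were alternatives, and the fit was tested on simulated data. Lengths came from GENCODE v29 transcripts and promoters from RefSeq GRCh38.p14. The genes and lists were chosen with earlier results of these data known. From the lists beyond the 10 carriers, genes called in the starvation comparisons or their difference, whose mean reached 5 CPM and whose groups did not overlap, were named, at most 6 per list and comparison, together with SLC1A3, ATF4, NFE2L2 and MYC.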

Additional observations from a re-analysis of the deposited data

Results flagged for a closer look

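The starvation response differed between the lines, by a test of the difference itself (edgeR's quasi-likelihood test), for 5 of the 10 carriers, as it did for 40.4% of all tested genes. The log2 difference, ρ0 minus parental, was -1.90 for SLC3A2, -1.60 for SLC7A5, 1.75 for SLC7A2, 0.65 for SLC38A2 and 0.47 for SLC38A1. SLC3A2 and SLC7A5 were higher in ρ0 than in parental control libraries and had the lower response, and SLC7A2 was lower in ρ0 controls and had the higher response. SLC38A2 was higher in ρ0 controls (0.52) and also had the higher response, and SLC38A1 did not differ significantly between the controls (-0.07). The difference between the controls enters that between the responses with a minus sign, so they are not independent. Among these 5 carriers, the response differences of 3 moved most with whichever ρ0 control library was left out. They lay between -2.26 and -1.46 for SLC3A2, -1.96 and -1.15 for SLC7A5, and 1.30 and 2.39 for SLC7A2. No group had enough libraries to look for a library far from the others.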

How the results depend on the processing

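Alternatives moved few of the results on single carriers: of those compared, 823 kept direction and side of the threshold, 38 newly passed it (18 of these without a ρ0 control library), 23 no longer passed it and 6 changed sign. Upper quartile and total count scaling moved the median of all genes in starved parental cells from -0.07 to -0.19 and -0.23. With limma-voom and group weights 415 genes were higher in starved ρ0 cells, and 4 carriers had the lower response in ρ0 cells. With at least 10 counts in every library 1290 genes were higher and 1586 lower in ρ0 controls, and on the libraries of the comparison alone 826 were lower in starved ρ0 cells. At any fold change 4637 genes were higher and 5423 lower in starved parental cells, and 2937 and 3371 in starved ρ0 cells. In ρ0 against parental cells they were 4662 and 4847 in full medium, with 6 carriers higher and 1 lower. When starved they were 5024 and 5120, with 4 carriers higher and 3 lower. With a fold threshold on the difference between the responses, 2026 genes and 1 carrier (SLC7A2) were higher. With that threshold 1011 genes were lower, and the carriers SLC3A2 and SLC7A5 stayed among them.

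Leaving out each library in turn gave 1975 to 5322 genes higher and 1505 to 4959 lower for the difference between the responses, with 1 to 4 carriers higher and 2 to 5 lower. The highest of these gene counts came without ρ0 control replicate 1, where the remaining ρ0 control is assumed to vary like the other groups and p-values are small for that reason. It gave 822 to 1526 genes lower in starved ρ0 cells. In full medium 2 to 4 carriers were higher and 1 to 2 lower in ρ0 cells, and 1 to 3 were higher when starved. The sign changed for SLC38A1 in full medium (-0.16 to 0.036) and for the response differences of SLC6A9 (-0.084 to 0.11), SLC1A4 (-0.10 to 0.35) and SLC7A1 (-0.38 to 0.12), none of which was significant with all libraries. The cause was not tested.

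Whether replicate numbers pair the samples is not stated in the sources used here. Deviations of same-numbered libraries from their group means correlated at -0.053 to 0.039 over all tested genes. Counting noise in genes with few counts lowers such a correlation, so these values do not settle it. With the replicate number as a block, 8 and 9 carriers were up-regulated DEGs in parental and ρ0 cells, as without it, and the SLC38A1 difference was 0.47 (adjusted p = 0.0567). With 2 libraries a group, the precision of each value rests on the pooled spread, to which the ρ0 controls contribute most.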
